A study of Mus musculus with 7 samples.

Results

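The hematopoietic stem cell (HSC) library of pMT-10 mice was compared with the 2 libraries of common myeloid progenitors (CMPs) of the same strain, gene by gene. These are 3 of the 7 libraries of the series, chosen by their labelled strain and cell type. All 7 were made from bone marrow cells purified by fluorescence-activated sorting, and every mouse had drunk water with zinc for 15 days. The pMT-10 mice overexpress IL-10, and the C57BL/6 (BL/6) mice are the control strain. As background, pMT-10 mice carry an Il10 transgene under a metallothionein promoter that zinc switches on, so zinc is both the inducer in one strain and a treatment that the controls share. Besides the compared libraries the series holds 2 of pMT-10 LSK (lineage-negative, SCA-1+, c-KIT+) CD150+CD48+ cells and 2 of BL/6 CMPs. The age, sex and number of the mice and the sort gates of HSC and CMPs were not found in the labels, nor was a statement that the 2 libraries of a group were from different mice. The p-values thus rest on the spread between libraries, which may be technical.

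HSC are the rare marrow cells that renew themselves and give rise to every blood lineage, and most of them divide seldom. CMPs lie further along this hierarchy and are already committed to the erythroid, megakaryocytic, granulocytic and monocytic lineages, whose genes they begin to transcribe. Many genes of the megakaryocyte lineage are also transcribed in HSC, among them Vwf.

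Totals of assigned reads were 7372430 for the HSC, 8948534 and 8467014 for the CMPs, and reached 13854314 among the other libraries. The table lists 23930 genes, each read by a targeted amplicon, and 11429 passed the filter on low counts. Levels are given in CPM (counts scaled to a common library size) and differences as log2 fold change, HSC minus CMPs, with the standard error (SE) of the fit and a Benjamini-Hochberg adjusted p from edgeR's quasi-likelihood test. A gene was called when that p was under 0.05. The HSC group had 1 library, so its spread was assumed to equal that within the 3 groups of 2 libraries, and it has no replicate check of its own. Within pMT-10 mice the HSC were read on one chip run and the CMPs on another, so population and run cannot be told apart. BL/6 CMPs were read on the chip run of the HSC, and their values are set beside those of the pMT-10 CMPs; both comparisons share the HSC library, and that with BL/6 CMPs differs in strain as well. The BL/6 libraries also held 0 counts of the Y-linked genes Ddx3y and Eif2s3y, against 370 and 454 in HSC.

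Of the tested genes, 2912 were called (25.5%), 1580 of them higher in HSC (13.8%) and 1332 lower (11.7%), and 2350 differed at least 2-fold. The median log2 fold change over all tested genes was 0.02. Against BL/6 CMPs on the shared run, 1349 genes were called higher in HSC (11.8%) and 971 lower (8.50%). The calls overlapped in part. Of the 2912 calls against pMT-10 CMPs, 1291 were called in the same direction against BL/6 CMPs. Another 407 had the opposite sign. The filter let 277 genes through on their HSC count alone, and 146 of those were called higher, a direction that the filter favours. The number of calls moved with the libraries in the fit: it was 1042 with only the 3 compared libraries, 5222 without pMT-10 CMP 1, 4635 without pMT-10 CMP 2, 1751 and 1794 without LSK 1 or LSK 2, and 1733 and 1748 without BL/6 CMP 1 or BL/6 CMP 2. Here and in what follows a call lost without either or any library of a group was lost when each of them, singly, was left out. Counts of list members in such fits are to be read beside these totals of calls. Over genes, the log2 difference between the 2 pMT-10 CMP libraries had an SD of 0.82, above 0.47 in the LSK pair and 0.39 in the BL/6 pair, and that between HSC and each pMT-10 CMP library an SD of 1.34 and 1.40.

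**Figure D1:**
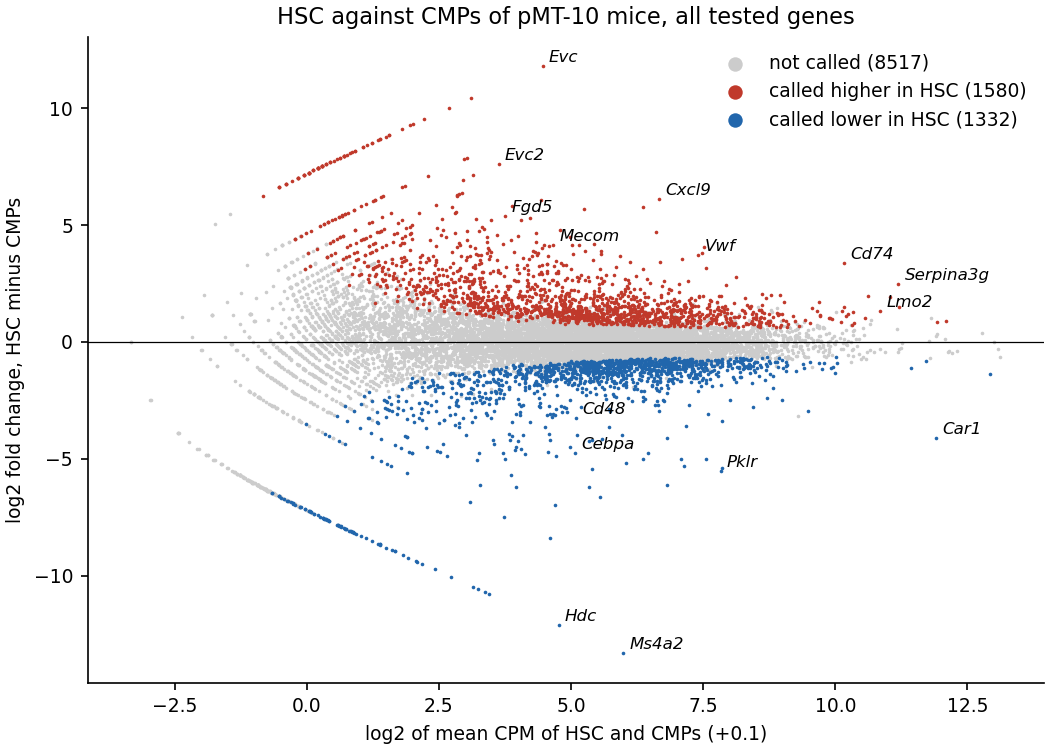
Log2 fold change of HSC against pMT-10 CMPs (y axis) by the log2 of the mean CPM (x axis), 1 point per tested gene; red and blue points are the 1580 and 1332 genes called higher and lower. Evc stands at the top and Ms4a2 at the bottom; the straight edges of points are genes with 0 counts in HSC or in both CMP libraries, whose fitted fold change depends on a prior count.

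The promoters of the genes at both ends of the comparison, and of regulators and surface genes described below, are printed from RefSeq (GRCm38.p6, mm10), 300 bases each from 250 before to 50 after the gene's start, 5′ to 3′ on the gene's strand. Capitals mark the GATA-type words AGATAA and TGATAA read on either strand (TTATCT and TTATCA), the core bound by the GATA factors that direct erythroid, megakaryocyte and mast cell genes. The first pair, on chromosome 5, is shown because both genes had almost no reads outside HSC: Evc at chr5:37336832-37337131 on the minus strand and Evc2 at chr5:37338228-37338527 on the plus strand. Their starts lie 1597 bases apart and point away from each other, and neither window holds the words.

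Evc: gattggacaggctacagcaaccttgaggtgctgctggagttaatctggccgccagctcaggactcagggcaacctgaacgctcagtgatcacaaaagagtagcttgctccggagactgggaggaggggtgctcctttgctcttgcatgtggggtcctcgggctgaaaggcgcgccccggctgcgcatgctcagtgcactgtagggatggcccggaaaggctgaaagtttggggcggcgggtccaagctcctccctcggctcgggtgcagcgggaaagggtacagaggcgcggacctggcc
Evc2: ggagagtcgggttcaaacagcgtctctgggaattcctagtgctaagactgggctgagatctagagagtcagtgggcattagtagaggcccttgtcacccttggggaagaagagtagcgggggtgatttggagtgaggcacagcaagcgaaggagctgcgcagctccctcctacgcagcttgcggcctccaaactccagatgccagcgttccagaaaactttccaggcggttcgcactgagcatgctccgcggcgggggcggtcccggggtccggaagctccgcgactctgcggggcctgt

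Ms4a2 (chr19:11623670-11623969, minus strand) had the most extreme loss in HSC and Rhd (chr4:134864286-134864585, plus strand) and Klf1 (chr8:84901732-84902031, plus strand) are erythroid genes lower in HSC. The first window holds 3 matches and the other two hold 1 each.

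Ms4a2: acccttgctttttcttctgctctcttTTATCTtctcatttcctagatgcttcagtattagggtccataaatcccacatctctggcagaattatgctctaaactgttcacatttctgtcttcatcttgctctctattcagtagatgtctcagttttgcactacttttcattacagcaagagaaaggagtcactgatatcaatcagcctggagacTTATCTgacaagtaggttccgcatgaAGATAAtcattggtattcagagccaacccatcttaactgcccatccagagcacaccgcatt
Rhd: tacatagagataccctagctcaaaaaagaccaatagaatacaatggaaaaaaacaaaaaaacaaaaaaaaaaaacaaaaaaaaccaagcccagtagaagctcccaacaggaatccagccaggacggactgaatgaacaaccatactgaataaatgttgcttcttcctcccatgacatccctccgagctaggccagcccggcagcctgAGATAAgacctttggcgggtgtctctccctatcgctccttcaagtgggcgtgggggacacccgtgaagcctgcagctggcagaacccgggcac
Klf1: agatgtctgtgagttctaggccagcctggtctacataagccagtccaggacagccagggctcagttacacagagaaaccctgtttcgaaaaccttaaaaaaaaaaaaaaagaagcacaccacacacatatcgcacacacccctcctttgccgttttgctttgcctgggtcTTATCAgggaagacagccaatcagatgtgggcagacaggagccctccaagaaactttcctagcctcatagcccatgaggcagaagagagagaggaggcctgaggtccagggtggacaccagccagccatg

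Slamf1 (chr1:171766882-171767181, plus strand), which encodes the HSC surface marker CD150, was higher in HSC, and its window holds 1 match.

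Slamf1: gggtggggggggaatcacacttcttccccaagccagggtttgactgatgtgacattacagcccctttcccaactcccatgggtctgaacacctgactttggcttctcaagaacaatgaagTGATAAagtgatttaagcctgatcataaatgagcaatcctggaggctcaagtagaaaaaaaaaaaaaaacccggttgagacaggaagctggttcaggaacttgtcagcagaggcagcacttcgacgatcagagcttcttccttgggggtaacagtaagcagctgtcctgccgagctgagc

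The starts are those RefSeq gives, which can differ from the starts in other annotations. Over all RefSeq promoters of this length, 5122 of 27025 (19%) hold at least 1 match. Of the 20 erythroid genes called lower in HSC 16 had a promoter entry, and 7 of those held a match (43.8%), as did 3 of 7 promoters of basophil and mast cell genes called lower (42.9%). Of the 19 megakaryocyte genes called higher 13 had an entry, and 3 of those held a match (23.1%). These are letter matches in short windows of few genes, given as a description.

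Il10 itself, the gene overexpressed in pMT-10 mice, had 1 count in HSC, 0 in both pMT-10 CMP libraries and 0 to 2 in the other 4. All are at or below the floor of 3 counts (0.397 CPM in HSC), so the transgene could not be checked in these cells. The label of the HSC library was checked against genes that mark HSC. Procr, which encodes the endothelial protein C receptor, was at 38.5 CPM in HSC and at 1.77 and 2.20 CPM in the CMPs (log2 fold change 4.27, SE 0.61, adjusted p = 0.00207). Mecom, a transcription factor needed for HSC maintenance, was at 47.6 against 2.54 and 2.90 CPM (4.13, SE 0.35, adjusted p = 0.000326). Hlf, another HSC transcription factor, was at 77.7 against 24.5 and 25.2 CPM (1.65, SE 0.26, adjusted p = 0.00327). In all 3 genes the HSC library stood above each of the other 6 libraries. Slamf1 was at 89.3 CPM in HSC and 12.8 and 12.1 CPM in CMPs (2.84, adjusted p = 0.000374). Cd48, absent from the surface of the purest HSC, was at 6.49 CPM in HSC against 44.4 and 79.5 CPM in CMPs and 63.6 and 40.5 CPM in the LSK CD150+CD48+ cells. Flt3, the receptor that marks multipotent progenitors without long-term activity, was at 1.06 against 17.7 and 7.65 CPM (-3.57, SE 0.81, adjusted p = 0.0142). The LSK cells were as low for Flt3, at 0.351 and 1.44 CPM, so this gene does not set HSC apart from them. The HSC library was thus highest for Procr, Mecom, Hlf and Slamf1 and lowest for Cd48, as its label calls for.

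Among the 45 tested genes of a list of stem cell genes, 25 rose in HSC and 4 fell (median log2 fold change 1.53). The list also holds the sort markers Cd48, Cd34, Flt3 and Kit, and Cd48, Cd34 and Flt3 were among those that fell. Fgd5, a guanine nucleotide exchange factor gene that marks HSC, had 26.2 CPM in HSC against 1.21 and 0 CPM in CMPs (log2 fold change 5.38, SE 0.88, adjusted p = 0.00383). Esam, an endothelial and HSC adhesion molecule, had 88.7 against 4.08 and 7.88 CPM (3.89, SE 0.37, adjusted p = 0.00041). Mycn, a MYC family member, had 43.0 against 5.08 and 8.69 CPM (2.64, SE 0.34, adjusted p = 0.00133), while Myc itself, at 657 against 520 and 740 CPM, was not called. Ly6a, which encodes SCA-1, had 331 CPM in HSC and 19.4 and 28.0 CPM in CMPs, and the LSK cells reached 326 and 249 CPM; it is also an interferon-induced gene, at 0.0923 and 2.02 CPM in BL/6 CMPs. Cd34 was lower in HSC at 76.5 against 120 and 207 CPM (-1.10, SE 0.35, adjusted p = 0.0466). This call was close to the threshold, and was lost with plain totals in place of TMM scaling, when any LSK or BL/6 library was left out and against BL/6 CMPs (adjusted p = 0.182). Kit, the stem cell factor receptor used in sorting, had 158 against 95.3 and 140 CPM and was not called (0.42, SE 0.29, adjusted p = 0.319).

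**Figure D2:**
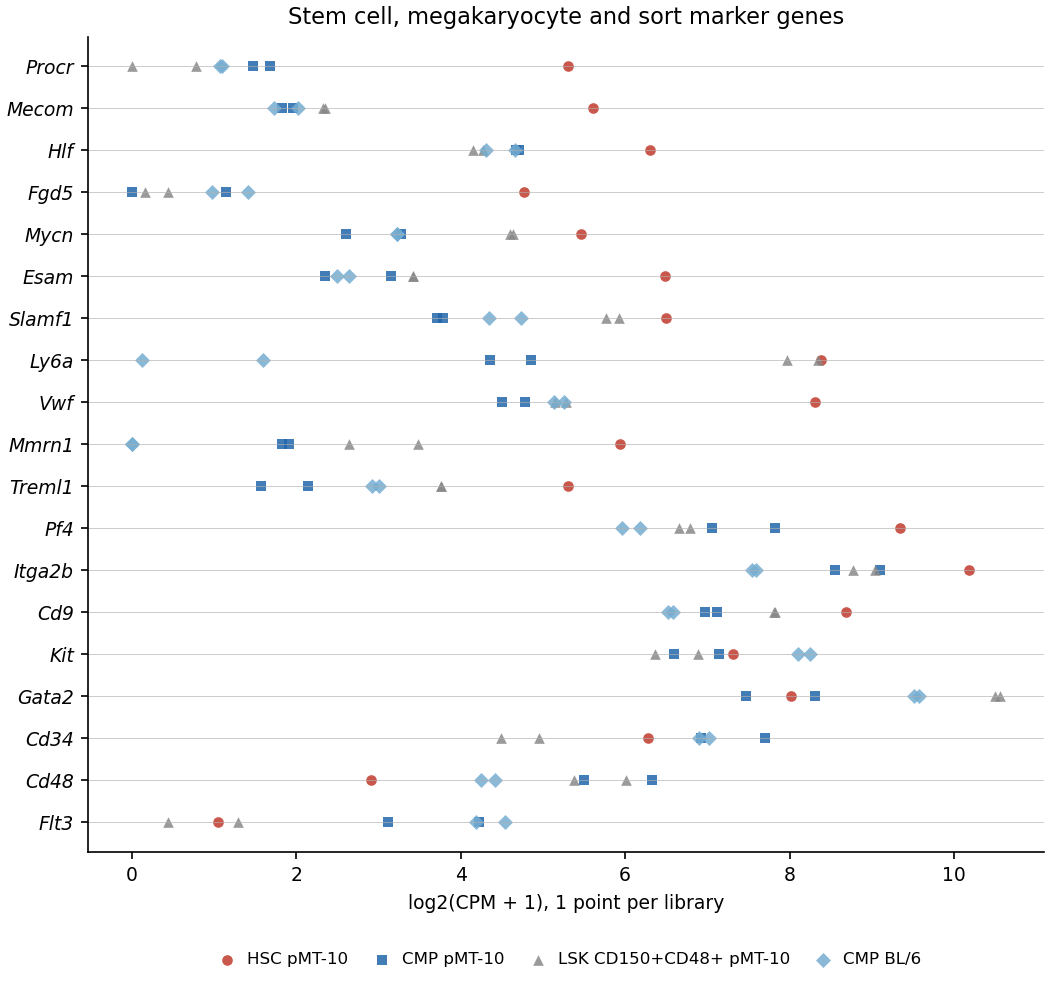
Log2(CPM + 1) (x axis) of stem cell, megakaryocyte and sort marker genes, 1 point for each of the 7 libraries, coloured and shaped by group. The HSC point lies to the right of all other libraries from Procr down to Cd9, though close to the LSK points for Ly6a, between the groups for Kit and Gata2, and to the left of every CMP library for Cd34, Cd48 and Flt3.

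Megakaryocyte and platelet genes stood higher in HSC as a group: 19 of 30 tested members rose and none fell, and the median difference was 1.59 on the log2 scale. Vwf, which encodes von Willebrand factor, was at 315 CPM in HSC and 21.6 and 26.5 CPM in CMPs (3.71, SE 0.23, adjusted p = 0.000105). The LSK cells, at 34.5 and 38.0 CPM, and the BL/6 CMPs, at 37.2 and 34.0 CPM, were also far below HSC for Vwf. Mmrn1, a platelet multimerin gene, was at 60.4 CPM in HSC, 2.76 and 2.55 CPM in pMT-10 CMPs and 0 in both BL/6 CMP libraries. Treml1, a receptor of platelet granules, was at 38.4 against 3.42 and 1.97 CPM (3.82, SE 0.37, adjusted p = 0.00042). Pf4, the platelet chemokine CXCL4, was at 651 against 132 and 225 CPM (1.87, SE 0.29, adjusted p = 0.00304), and Itga2b, the platelet integrin CD41, at 1160 against 374 and 549 CPM. The 2 CMP libraries did not reach the HSC level for any of these genes. Against BL/6 CMPs 22 of the 30 were higher in HSC and none lower.

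Evc and Evc2 had the largest increases among genes with at least 20 CPM in HSC. Both encode membrane proteins at the base of the primary cilium that take part in hedgehog signalling. Evc (chr5:37289098-37336894, minus strand) had 332 counts in HSC (43.9 CPM) and 0 in both CMP libraries, which makes it at least 126-fold higher against a floor of 3 counts per library. The other 4 libraries held 0 to 3 counts. Evc2 (chr5:37338499-37425055, plus strand) had 185 counts in HSC (24.5 CPM) against 2 and 0, a ratio of 217 with an exact counting interval from 59.1 to 1802, and 1 or 2 counts in each other library. HSC was thus the one library with more than 3 counts of either gene. Both genes passed the filter on low counts only through HSC, which favours a call in this direction. The HSC level rests on 1 library.

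The rest of the 12 top genes were spread over other roles. Fstl1, a secreted glycoprotein gene, had 42.5 CPM in HSC against 0.662 and 0.580 CPM in CMPs (6.07, SE 0.51, adjusted p = 0.000326). Obsl1, a cytoskeletal adaptor gene, had 74.3 against 1.66 and 1.16 CPM (5.71, SE 0.43, adjusted p = 0.000205). Mtss1l had 162 against 4.08 and 1.85 CPM (5.76, SE 0.41, adjusted p = 0.000159). The 4 libraries outside the comparison were also far below HSC for these 3 genes, with 13 CPM of Mtss1l in BL/6 CMP 1 the highest value. Myof (myoferlin, a membrane repair protein) had 36.3 against 1.10 and 0.695 CPM, Palld (palladin, which binds actin) 32.2 against 1.10 and 0.580 CPM, and Zfp827, a zinc finger gene, 21.6 against 0 and 1.16 CPM. Col4a1, a basement membrane collagen gene, had 53.5 against 2.54 and 1.27 CPM (4.79, SE 0.46, adjusted p = 0.000415). Every one of them was also higher in HSC than in BL/6 CMPs by the same test.

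Hoxb2 was in the top 12 as well, with 28.9 CPM in HSC against 0.993 and 0 CPM (5.80, SE 0.86, adjusted p = 0.00248). Hox genes encode homeodomain factors, several of which are transcribed in HSC and shut off as cells differentiate. Of the 13 tested Hox genes and partners of the TALE class, 5 rose and none fell. Hoxa7 was at 98.6 against 52.3 and 39.5 CPM (1.10, SE 0.26, adjusted p = 0.017) and Hoxa9 at 88.5 against 38.8 and 50.4 CPM (0.99, SE 0.26, adjusted p = 0.0237). The Hoxa9 call was lost without either BL/6 library and that of Hoxa7 without BL/6 CMP 2. Without BL/6 CMP 2 only 1 of the Hox and TALE genes rose. Hoxa10, counted among the 5, had 13 counts in HSC and 0 in both CMP libraries, at least 4.95-fold higher. It passed the filter on low counts only through HSC, and its call was lost in DESeq2, without any LSK or BL/6 library and in the comparison with BL/6 CMPs (adjusted p = 0.0815). Meis1, a TALE partner, was not analysed here.

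The erythroid programme was lower in HSC: 20 of 29 tested genes fell and 2 rose (median log2 fold change -2.50). Car1, carbonic anhydrase 1, was at 426 CPM in HSC and at 8164 and 6435 CPM in CMPs (-4.10, SE 0.31, adjusted p = 0.000205). Klf1, the master erythroid transcription factor, was at 2.91 against 36.4 and 53.5 CPM (-3.94, SE 0.43, adjusted p = 0.000619). The LSK and BL/6 CMP libraries were within 34.5 to 47.7 CPM for Klf1, so HSC stood alone at the low end. Genes of the red cell membrane and its skeleton followed: Ank1 (ankyrin) was at 8.07 against 275 and 253 CPM (-5.03, SE 0.29, adjusted p = 7.31e-05). Add2 (adducin) was at 7.01 against 282 and 269 CPM (-5.29, SE 0.36, adjusted p = 0.000133). Atp1b2, a sodium pump subunit, was at 10.9 against 462 and 445 CPM (-5.38, SE 0.30, adjusted p = 7.31e-05). For these 3 genes the 2 CMP libraries lay close together and far above HSC. Rhd, which encodes the Rh blood group protein, was at 1.06 against 102 and 58.5 CPM (-6.23, SE 0.79, adjusted p = 0.00123).

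The 2 members that rose were Lmo2 and Zfpm1, transcriptional partners of GATA factors that also act in stem cells and megakaryocytes. Lmo2 was at 2636 CPM in HSC against 1445 and 694 CPM (1.30, SE 0.36, adjusted p = 0.0298), and Zfpm1 at 1415 against 727 and 836 CPM (0.86, SE 0.22, adjusted p = 0.0226). Neither was called against BL/6 CMPs (adjusted p = 0.111 and 0.318). Without a BL/6 library both calls were lost, and that of Lmo2 also without an LSK library. Gata1, at 166 against 179 and 262 CPM (-0.41, SE 0.31, adjusted p = 0.347), and Gata2, at 257 against 316 and 176 CPM (0.06, SE 0.31, adjusted p = 0.894), were not called. Both were lower in HSC than in BL/6 CMPs, which held 421 and 427 CPM of Gata1 and 763 and 732 CPM of Gata2 (adjusted p = 0.0179 and 0.0122).

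Iron uptake and haem synthesis genes fell in 10 of 18 tested cases and none rose (median log2 fold change -0.96); without either LSK library 6 fell. Tfrc, the transferrin receptor gene, was at 25.7 against 157 and 177 CPM (-2.70, SE 0.25, adjusted p = 0.000374). Steap3, an endosomal iron reductase gene, was at 32.4 against 178 and 184 CPM (-2.48, SE 0.24, adjusted p = 0.000437). Cpox, an enzyme of haem synthesis, was at 41.0 against 305 and 387 CPM (-3.07, SE 0.31, adjusted p = 0.000517). HSC had the lowest level of the 7 libraries for each of these. Ppox, the next enzyme of the pathway, was at 13.6 against 54.2 and 55.9 CPM. BL/6 CMPs were at 14.3 and 17.4 CPM, and against them it was not called (adjusted p = 0.621).

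**Figure D3:**
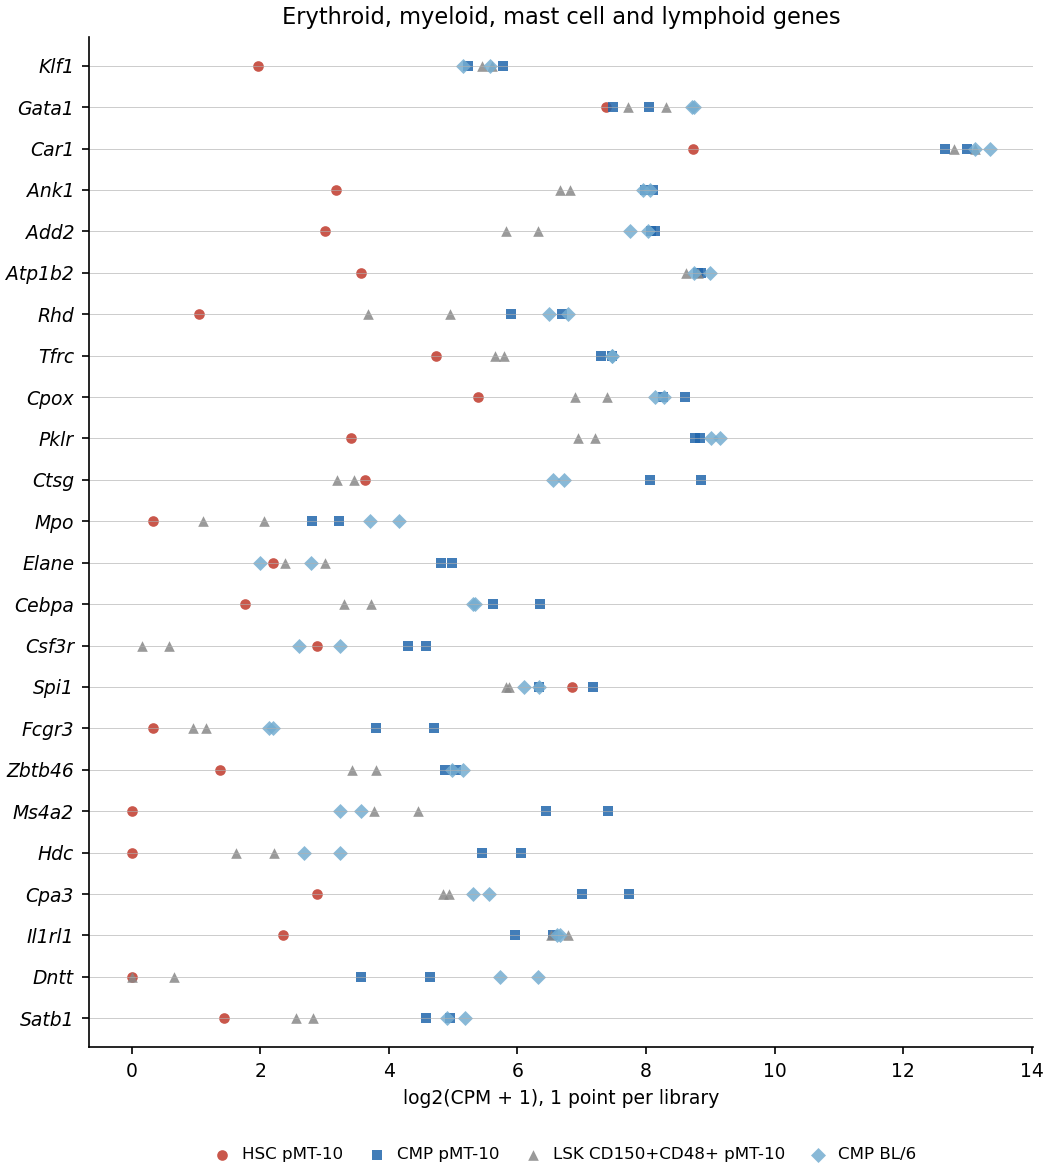
Log2(CPM + 1) (x axis) of erythroid, iron, myeloid, mast cell and lymphoid genes, 1 point for each of the 7 libraries. The HSC point is the lowest of all from Klf1 to Pklr and lies below both pMT-10 CMP points for every gene drawn except Spi1; for Ctsg, Elane and Csf3r it overlaps or lies close to libraries of other groups.

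Genes of the neutrophil lineage were lower in HSC in 10 of 24 tested cases and higher in 2 (median log2 fold change -1.73, or -1.56 with genes at 0 counts set to their bound). Ctsg, the granule protease cathepsin G, was at 11.4 against 265 and 462 CPM (-5.00, SE 0.43, adjusted p = 0.000326). Cebpa, the transcription factor required for granulocyte commitment, was at 2.38 against 48.4 and 80.6 CPM (-4.75, SE 0.48, adjusted p = 0.000517). Mpo, myeloperoxidase, had 2 counts in HSC and 76 and 52 in CMPs, a ratio of 27.3 (interval 7.41 to 228). HSC was lowest of the 7 libraries for Cebpa and Mpo, while the LSK cells were at 10.1 and 8.13 CPM for Ctsg, next to HSC. Elane, neutrophil elastase, was at 3.57 against 27.0 and 30.7 CPM (-3.01, SE 0.54, adjusted p = 0.0058). Csf3r, the G-CSF receptor gene, was at 6.35 against 18.6 and 22.9 CPM (-1.71, SE 0.50, adjusted p = 0.0359), a call lost without any LSK or BL/6 library. Gfi1, a repressor that directs granulocyte fate, was at 2.25 against 21.7 and 15.5 CPM (-3.04, SE 0.51, adjusted p = 0.00441), and Hk3, a myeloid hexokinase, at 7.81 against 100 and 93.4 CPM (-3.63, SE 0.41, adjusted p = 0.000698). BL/6 CMPs held 5.91 and 2.99 CPM of Elane and 8.50 and 5.09 CPM of Csf3r, and Elane, Csf3r, Gfi1 and Hk3 were not called against them (adjusted p = 0.717, 0.916, 0.241 and 0.0887). Of the whole list, 3 members fell and 1 rose in that comparison. The LSK cells lay below HSC for Csf3r (0.117 and 0.504 CPM), Gfi1 (0.468 and 0.288 CPM) and Hk3 (3.86 and 1.94 CPM). For Elane they lay above HSC, at 7.01 and 4.25 CPM.

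The 2 neutrophil members that rose were Lyz2 and Ltf. Lyz2, lysozyme, was at 319 CPM in HSC against 124 and 126 CPM (1.35, SE 0.23, adjusted p = 0.00482). Ltf, lactoferrin, passed the filter on low counts only through HSC and had 14 counts in HSC and 0 in both CMPs, at least 5.33-fold higher, with a call (adjusted p = 0.0488) that was lost in DESeq2 and without any LSK or BL/6 library. Spi1, the PU.1 gene, was at 115 CPM in HSC, between the CMP values of 80 and 144 CPM, and was not called.

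Monocyte and dendritic cell genes fell in 7 of 21 tested cases, and Cst3 alone rose (median log2 fold change -0.92). By sign alone 10 were higher and 11 lower, and the list summed to 1380 CPM in HSC against 987 and 1046 CPM in CMPs, Cst3 alone giving 802 against 417 and 335 CPM. With BL/6 CMPs as the reference 5 members were called higher and 6 lower. Csf1r, the M-CSF receptor gene, had 0 counts in HSC and 51 and 36 in CMPs, at least 12.3-fold lower. Fcgr3, a low-affinity Fc receptor gene, had 2 counts in HSC, or 0.265 CPM, against 12.9 and 25.2 CPM, a ratio of 71.3 (interval 19.6 to 591). Zbtb46, a transcription factor of classical dendritic cells, was at 1.59 against 28.2 and 32.0 CPM (-4.23, SE 0.42, adjusted p = 0.000472). F13a1, coagulation factor XIII A, was at 0.529 against 11.6 and 10.9 CPM (-4.38, SE 0.74, adjusted p = 0.00453). In all 4 genes the HSC library was below both CMP libraries of each strain. The LSK cells were close to HSC for Csf1r (1 and 2 counts), Fcgr3 (0.935 and 1.22 CPM) and F13a1 (1.29 and 1.08 CPM). They held 9.82 and 12.9 CPM of Zbtb46.

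Basophil and mast cell genes that passed the test were lower in HSC. Of 18 tested members 7 fell and none rose (median log2 fold change -2.35, or -1.39 with genes at 0 counts set to their bound). With RLE size factors, DESeq2, limma-voom, thinning, no filter or without X- and Y-linked genes 1 member rose, as it did without pMT-10 CMP 1, and 2 did without pMT-10 CMP 2. Ms4a2 (chr19:11615523-11623719, minus strand), which encodes a subunit of the IgE receptor FcεRI, had 0 counts in HSC and 778 and 1451 in CMPs (85.9 and 168 CPM), at least 320-fold lower. Hdc, the histamine-forming enzyme, had 0 counts against 389 and 564, at least 136-fold lower. The remaining 4 libraries held 92 to 178 counts of Ms4a2 and 29 to 92 of Hdc, so both genes were undetected in HSC alone. Cpa3, mast cell carboxypeptidase, was at 6.35 against 127 and 212 CPM (-4.74, SE 0.42, adjusted p = 0.000356), and Il1rl1, the IL-33 receptor gene, at 4.1 against 61.2 and 93.0 CPM (-4.23, SE 0.38, adjusted p = 0.000364). The list's summed level went the other way, at 2582 CPM in HSC against 1570 and 2529 CPM in CMPs. Most of it was Srgn, the granule proteoglycan serglycin, named here after its values were seen, at 2148 against 821 and 1400 CPM without a call (0.95, adjusted p = 0.0502). Against BL/6 CMPs 5 members of the list were higher in HSC and 5 lower.

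Other genes among the 12 largest decreases had varied roles. Aldh1a7, an aldehyde dehydrogenase gene, had 0 counts in HSC and 17.4 and 23.6 CPM in CMPs, at least 51.7-fold lower. Tmem56 had a ratio of 365 (interval 65.3 to 14423), Tespa1, an adaptor of T cell receptor signalling, 198 (35.4 to 7844), and Abcg4, a sterol transporter gene, 129 (43.9 to 625). For these 3 genes the HSC library held 1 to 3 counts, so the upper ends are wide. Ccl9, a chemokine gene, was at 3.18 against 199 and 247 CPM (-6.13, SE 0.41, adjusted p = 0.000133), and the LSK cells were near HSC at 5.14 and 3.09 CPM. Atp7b, a copper pump gene, was at 0.926 against 138 and 46.2 CPM (-6.62, SE 0.89, adjusted p = 0.00161). Acsl6, an acyl-CoA synthetase gene, was at 0.529 against 28.0 and 28.6 CPM (-5.71, SE 0.64, adjusted p = 0.000643), and Cldn13, a claudin gene, had a ratio of 76.9 (26.2 to 374).

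Genes of lymphoid priming fell in 8 of 17 tested cases and rose in 3 (median log2 fold change -1.33, or -0.73 with genes at 0 counts set to their bound). Among the 3 that rose was Cd79b, a B cell receptor chain gene, at 52.3 against 11.0 and 19.1 CPM (1.79, SE 0.34, adjusted p = 0.00671). Dntt, the terminal transferase of early lymphoid cells, had 0 counts in HSC against 10.9 and 24 CPM, at least 44.0-fold lower, and reached 52.0 and 79.1 CPM in BL/6 CMPs. The LSK cells were near HSC for Dntt, at 0 and 0.576 CPM. Satb1, a chromatin organiser, was at 1.72 against 29.9 and 22.8 CPM (-3.93, SE 0.45, adjusted p = 0.000698). The LSK cells, at 6.08 and 4.89 CPM of Satb1, lay between HSC and the CMPs.

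**Figure D4:**
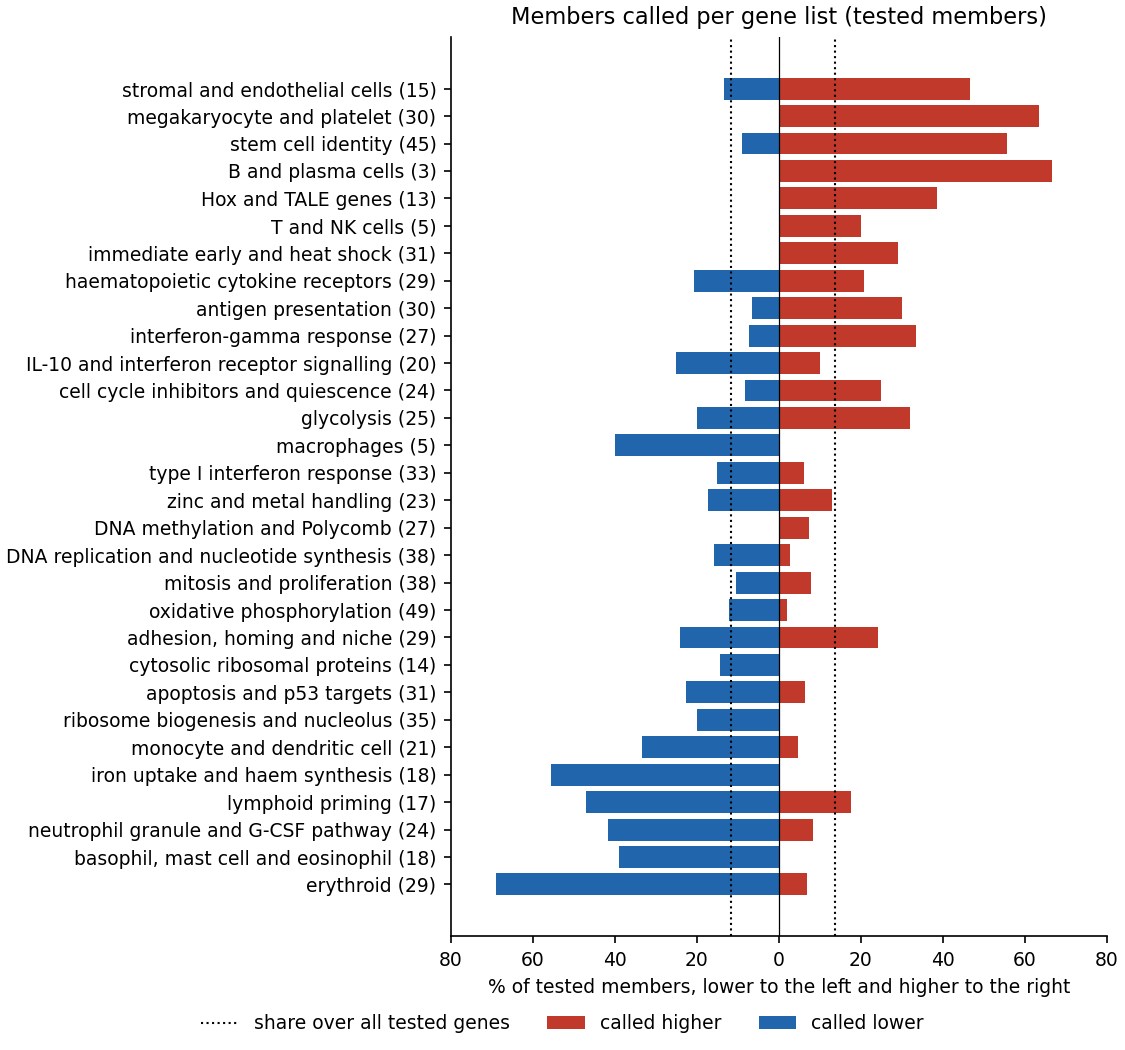
Share of each list's tested members called lower (left) and higher (right) in HSC against pMT-10 CMPs, in %, ordered by the list's median log2 fold change, with the number of tested members in brackets. Dotted lines mark the shares over all tested genes, 13.8% higher and 11.7% lower; erythroid genes reach furthest to the left, and the B and plasma cell list, with 3 tested members, and the megakaryocyte list furthest to the right.

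Interferon-gamma responsive genes were compared because the title of the study ties IL-10 to interferon-gamma. Of 27 tested members 9 rose in HSC against pMT-10 CMPs and 2 fell (median log2 fold change 0.24). Cxcl9 (chr5:92321347-92328079, minus strand), an interferon-gamma-induced chemokine, was at 201 CPM in HSC against 1.77 and 4.06 CPM (6.11, SE 0.44, adjusted p = 0.000176), and at 5.49 and 5.47 CPM in the LSK cells. Cxcl10, a related chemokine, was at 105 against 16.0 and 6.37 CPM (3.22, SE 0.43, adjusted p = 0.00147). Serpina3g, a serpin of activated immune cells, was at 3971 against 818 and 613 CPM (2.47, SE 0.23, adjusted p = 0.000374). HSC had the highest level of these 3 genes in the series. Irf1, the transcription factor induced by interferon-gamma, was at 626 against 420 and 331 CPM (0.74, SE 0.23, adjusted p = 0.0446), between the LSK libraries at 661 and 585 CPM, and its call was lost without any LSK or BL/6 library. Summed over the list, the level was 9964 CPM in HSC, 5824 and 6072 CPM in pMT-10 CMPs, 10517 and 9165 CPM in LSK cells, and 1725 and 1815 CPM in BL/6 CMPs. Against BL/6 CMPs 22 of the 27 genes were higher in HSC and none lower, a comparison in which the strain differs.

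Genes of antigen presentation rose in 9 of 30 tested cases and fell in 2 (median log2 fold change 0.29). With 1 library left out 6 (without any LSK or BL/6 library) to 13 (without pMT-10 CMP 2) rose and 1 (without any LSK or BL/6 library) to 7 (without pMT-10 CMP 1) fell. Cd74, the invariant chain that accompanies MHC class II molecules, was at 2102 CPM in HSC and 164 and 242 CPM in CMPs (3.37, SE 0.33, adjusted p = 0.000453). H2-Eb1, an MHC class II chain, was at 797 against 206 and 288 CPM (1.69, SE 0.30, adjusted p = 0.00512), and H2-DMb2, a chain of the peptide-loading molecule H2-DM, at 47.9 against 3.20 and 5.45 CPM (3.47, SE 0.54, adjusted p = 0.00313). The LSK cells lay nearest to HSC, with 1361 and 889 CPM of Cd74 and 952 and 595 CPM of H2-Eb1, and the BL/6 CMPs at the bottom, with 0.462 and 1.05 CPM of Cd74. H2-T24, a class I-like gene, was lower in HSC at 35.6 against 94.2 and 74.8 CPM (-1.25, SE 0.26, adjusted p = 0.00974), but not called against BL/6 CMPs (adjusted p = 0.182). Reads of closely related MHC class I genes may not be separable, so values of single H2 class I genes are uncertain.

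In the type I interferon list 21.2% of tested members were called, beside 25.5% of all tested genes. Of its 33 tested members 2 rose and 5 fell (median log2 fold change -0.07). Without pMT-10 CMP 1 the counts were 8 and 10, and without either BL/6 library 1 and 2. Over all 11409 genes tested without pMT-10 CMP 1, 2830 rose and 2392 fell. The comparison with BL/6 CMPs gave 8 members higher in HSC and 3 lower. Ifi44 was at 64.5 against 24.5 and 16.1 CPM (1.67, SE 0.31, adjusted p = 0.00662). Isg20, an antiviral exonuclease gene, was at 72.7 against 206 and 269 CPM (-1.71, SE 0.28, adjusted p = 0.00378), and Oasl1, an antiviral gene, at 7.81 against 28.0 and 45.9 CPM (-2.24, SE 0.40, adjusted p = 0.00547). Stat2, which carries the type I interferon signal, was at 51.1 against 101 and 93.0 CPM (-0.92, SE 0.25, adjusted p = 0.025), and this call was lost without any LSK or BL/6 library. For Stat2 and Isg20 the sign depended on the CMPs used. Stat2 was higher in HSC than in BL/6 CMPs (log2 fold change 1.28, adjusted p = 0.00528). Isg20 gave 0.47 there without a call.

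**Figure D5:**
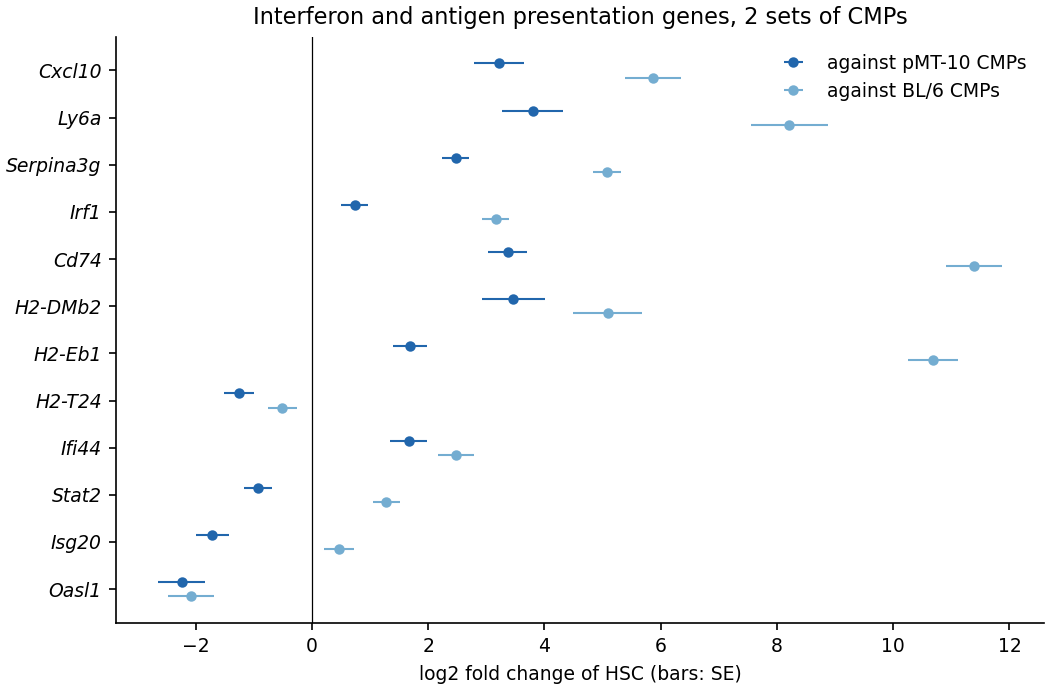
Log2 fold change of HSC against pMT-10 CMPs (dark points) and against BL/6 CMPs (light points) for interferon and antigen presentation genes, with bars of 1 SE. Against BL/6 CMPs the points of Cd74 and H2-Eb1 lie above 10, those of Stat2 and Isg20 change side, and Oasl1 is below 0 in both.

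Receptors were compared as well. Il10ra, the ligand-binding chain of the IL-10 receptor, was at 3.44 against 18.8 and 8.35 CPM (-1.98, SE 0.55, adjusted p = 0.0302), and its call was lost without any LSK or BL/6 library and in limma-voom. Ifngr1, the ligand-binding chain of the interferon-gamma receptor, was at 150 against 178 and 354 CPM and was not called (adjusted p = 0.135). Ifngr2, its partner chain, was at 9.13 against 20.7 and 43.3 CPM (-1.81, SE 0.47, adjusted p = 0.023), with a call lost without either LSK library and against BL/6 CMPs. In the list of IL-10 and interferon receptor signalling 2 of 20 tested genes rose and 5 fell; without either LSK library 1 rose and 1 fell. Haematopoietic cytokine receptors were split, with 6 of 29 higher and 6 lower, among them Csf1r, Csf3r, Flt3 and Il17ra. Il17ra, the IL-17 receptor gene, was at 42.0 against 136 and 196 CPM (-1.98, SE 0.28, adjusted p = 0.00213).

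Proliferation genes differed little between HSC and CMPs as lists. In mitosis 3 of 38 tested genes rose and 4 fell, and in DNA replication 1 rose and 6 fell of 38, shares near or below those over all genes. Without pMT-10 CMP 1, 7 mitosis genes rose and 10 fell, and 6 and 12 of DNA replication. In that fit 5222 of all 11409 tested genes were called, 2830 higher and 2392 lower. Mki67, the Ki-67 gene, was at 67.4 against 105 and 80.7 CPM and was not called (-0.46, SE 0.31, adjusted p = 0.304). Cdc6, which loads the replicative helicase, was at 39.2 against 142 and 148 CPM (-1.89, SE 0.26, adjusted p = 0.0017), and Cenpa, the centromeric histone gene, at 74.9 against 250 and 308 CPM (-1.89, SE 0.30, adjusted p = 0.00306). Tyms, thymidylate synthase, went the other way at 135 against 36.6 and 26.4 CPM (2.10, SE 0.32, adjusted p = 0.00293), but BL/6 CMPs were at 155 and 162 CPM. Cell cycle inhibitors and quiescence genes rose in 6 of 24 tested cases and fell in 2, and 3 rose without either BL/6 library. Of this list 33.3% were called, beside 25.5% of all tested genes. Foxo3 was among the members that fell, at 88.5 against 159 and 217 CPM (-1.09, SE 0.26, adjusted p = 0.0173). It was lower in HSC than in BL/6 CMPs too (-1.10, adjusted p = 0.0183). Cdkn1c, the p57 inhibitor linked to HSC quiescence, was at 10.2 against 2.10 and 1.51 CPM (2.49, SE 0.49, adjusted p = 0.00804), and Cdkn2d, the p19 inhibitor, at 85.6 against 38.6 and 36.5 CPM (1.19, SE 0.25, adjusted p = 0.0105). Cdk6, a kinase of the G1 phase, was at 249 against 407 and 643 CPM (-1.08, SE 0.29, adjusted p = 0.0276), a call lost without either LSK library. Cdkn1b, at 13.2 against 8.61 and 10.2 CPM, was not called.

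Metabolic lists moved in part. In ribosome biogenesis 7 of 35 tested genes fell and none rose (median log2 fold change -0.47). Of this list 20% were called, all lower, beside 25.5% called and 11.7% lower over all tested genes. Nip7, for example, was at 63.0 against 131 and 190 CPM (-1.35, SE 0.28, adjusted p = 0.00936), though BL/6 CMPs were at 53.7 and 56.2 CPM. In oxidative phosphorylation 6 of 49 fell and 1 rose, a share near the background. Without BL/6 CMP 1, 3 genes of ribosome biogenesis and 0 of oxidative phosphorylation fell, and without pMT-10 CMP 1 these counts were 15 and 17. Over all tested genes 781 of 11378 fell in the first fit and 2392 of 11409 in the second. Glycolysis genes were called in both directions, 8 of 25 higher and 5 lower. Pkm, the pyruvate kinase of most tissues, was at 1681 against 680 and 801 CPM (1.18, SE 0.25, adjusted p = 0.0112), and Pklr, the liver and red cell enzyme, at 9.66 against 433 and 457 CPM (-5.52, SE 0.30, adjusted p = 7.31e-05). Slc2a3, the glucose transporter GLUT3, was at 308 against 84.2 and 91.7 CPM (1.81, SE 0.22, adjusted p = 0.000932). Each of these 3 differences had its sign and call against BL/6 CMPs too. Ldha, lactate dehydrogenase A, was at 3465 against 1417 and 1066 CPM (1.48, SE 0.22, adjusted p = 0.00242), while BL/6 CMPs were at 2373 and 2451 CPM and gave no call (adjusted p = 0.129). Ldhb, the B subunit, was higher too, at 20.4 against 1.66 and 1.51 CPM (3.68, SE 0.52, adjusted p = 0.00192).

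Immediate early and heat shock genes, which respond within minutes to handling as well as to signals, rose in 9 of 31 tested cases and none fell (median log2 fold change 0.49). Of this list 29.0% were called, all higher, beside 25.5% called and 13.8% higher over all tested genes. The list's summed level was lower in HSC, at 12325 against 15215 and 15132 CPM. Most of it was the chaperone gene Hsp90ab1, named after its values were seen, at 6913 against 10621 and 11222 CPM without a call. Klf2, a transcription factor of resting cells, was at 59.8 against 10.5 and 8.92 CPM (2.62, SE 0.38, adjusted p = 0.00231), and Fosb at 50.8 against 8.61 and 7.53 CPM (2.65, SE 0.62, adjusted p = 0.0159). Against BL/6 CMPs 9 members of the list were higher in HSC and 1 lower. Ddit4 and Dusp2, called higher against pMT-10 CMPs, were not called there (log2 fold change -0.081 and 0.34). Sort times were not found in the labels, and the part of handling in these values was not tested. Mt1, the zinc-induced metallothionein gene, was at 182 against 712 and 727 CPM (-1.99, SE 0.24, adjusted p = 0.000977), below every other library, although all mice received zinc. Adhesion genes were split, 7 of 29 higher and 7 lower: Itga4, the integrin alpha 4 chain, was at 153 against 369 and 508 CPM (-1.52, SE 0.26, adjusted p = 0.00444). Cxcr4, the CXCL12 receptor, was at 83.4 against 135 and 166 CPM (-0.85, SE 0.24, adjusted p = 0.0333), with a call lost without any LSK or BL/6 library and against BL/6 CMPs.

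Markers of other cells moved with the comparison in part. In bulk libraries fewer cells of a type and less RNA per cell cannot be told apart. Of 15 tested stromal and endothelial genes 7 rose and 2 fell, and the list summed to 1163 CPM in HSC, 680 and 664 CPM in pMT-10 CMPs, and 630 to 823 CPM elsewhere. In this list 60% of tested members were called, beside 25.5% of all tested genes. The risers included Vwf, Tie1 at 85.1 against 9.49 and 18.2 CPM, and Bgn at 19.6 against 0.883 and 0.464 CPM; Cdh5, Cxcl12, Pdgfra, Col1a1 and Dcn had 0 counts in HSC. The B and plasma cell list summed to 418 CPM in HSC against 141 and 149 CPM, most of it Xbp1 at 357 against 124 and 125 CPM, with Cd79b at 52.3 against 11.0 and 19.1 CPM; Ms4a1, Ebf1 and Cd22 were at 0 in HSC. T and NK cell genes summed to 32.4 against 16.1 and 26.3 CPM with Cd3d, Cd3e and Cd8a at 0, and macrophage genes to 51.0 against 76.1 and 64.4 CPM with Adgre1, C1qa and Mertk at 0. Members at 0 counts were common in CMPs too. In HSC and in both pMT-10 CMP libraries they numbered 10 and 9 for stromal and endothelial genes and 9 and 6 for B and plasma cells. They numbered 19 and 12 for T and NK cells and 9 and 10 for macrophages. Xist, read from the inactive X chromosome, had 959 counts in HSC and 11904 and 8140 in CMPs, and the Y-linked Eif2s3y had 454 against 62 and 310, so each of these libraries held both. Without the genes of chromosomes X and Y, 2828 genes were called; the part of animal sex in the other values was not tested.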

How the data were processed

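Expression was measured with a targeted amplicon panel (Ion AmpliSeq Transcriptome, mouse) in 7 libraries of sorted bone marrow cells. The authors deposited whole-number counts per gene, 1 column per library; per the submitters' processing notes they used mm10. Aligner and counter: not given in the sources used here. Groups came from the labelled strain and cell type. In R 4.3.3, genes with low counts were removed with edgeR 4.0.16 (filterByExpr, minimum count 10), libraries were scaled by TMM, and 4 group means were fitted over all 7 libraries with the robust quasi-likelihood test (3 residual degrees of freedom), with Benjamini-Hochberg adjustment over 11429 genes. Totals of 7372430 to 13854314 put the floor of 3 counts at 0.397 CPM in HSC; 95% exact intervals on ratios cover counting error only.

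Genes named were the 12 largest changes in each direction among called genes with at least 20 CPM in the higher group and HSC outside the CMP range, up to 4 genes with the smallest p of each list with at least 3 calls, and a fixed set of markers; a few of these genes are not reported here. Members and the 30 lists were chosen with earlier results of these data known; no test was made over a list. Gene positions from GENCODE matched 89.1% of names. The scripts were tested on simulated data. Alternatives were DESeq2 1.42.0, limma-voom (limma 3.58.1), other scalings and filters, thinning, fewer libraries and BL/6 CMPs as the reference.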

Additional observations from a re-analysis of the deposited data

How the results depend on the processing

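No paired analysis was possible because the HSC group has 1 library with no replicate number, so it shares no number with the CMPs. HSC could not be left out for the same reason. With only the 3 compared libraries 1042 genes were called, 588 higher and 454 lower. Leaving out 1 library at a time gave 1733 to 5222 calls, 937 to 2830 higher and 758 to 2392 lower. What moved these numbers was not tested. With RLE size factors 2920 genes were called, with plain totals 2904, with DESeq2 2968, with limma-voom 2880, after thinning to the smallest total 2877, with a minimum count of 50 2638, with no filter 3535, and without X- and Y-linked genes, an alternative chosen after seeing the data, 2828. None of these 8 settings turned the sign of a gene called in the full fit. With BL/6 CMPs as the reference, 407 of the 2912 called genes had the opposite sign and 1291 were called in the same direction.

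Of the named genes, Spi1, Myc and Gata2, none of them called, changed sign when libraries were left out. Spi1 gave -0.021 with only the 3 compared libraries and -0.33 to 0.52 with 1 library left out, Myc -0.17 to 0.34 and Gata2 -0.30 to 0.55. Against BL/6 CMPs on the chip run of the HSC, 12 named genes changed sign: Kit -0.87, Gata2 -1.54, Isg20 0.47, Stat2 1.28, Cdkn1a -0.41, Cdkn1b -0.10, Tyms -0.23, Nip7 0.20, Ndufc1 0.21, Cox7a2 0.41, Ddit4 -0.081 and Myc -1.06 (log2 fold changes). Another 23 kept their direction without a call there, among them Cd34, Elane, Csf3r, Gfi1, Hk3, Lmo2, Zfpm1, Ppox, H2-T24, Ifngr2, Cdk6, Ldha and Cxcr4. With only the 3 compared libraries 30 lost their call, among them Cd34, Csf3r, Lmo2, Zfpm1, Irf1, Stat2, Il10ra, Ifngr2, Cdkn1c, Cdkn2d, Hoxa7, Hoxa9, Cdk6, Pkm and Cxcr4. The cause was not tested. With 1 library left out, 18 to 31 stem cell and 15 to 23 megakaryocyte genes rose, and 18 to 22 erythroid, 8 to 15 neutrophil and 7 to 10 basophil and mast cell genes fell. At 7372430 counts a gene of HSC under 0.397 CPM could not be told from 0.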

Other observations

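Genes of cell death fell in 7 of 31 tested cases and rose in 2, beside 11.7% lower and 13.8% higher over all tested genes. With 1 library left out 5 (without either LSK library) to 13 (without pMT-10 CMP 2) fell and 1 (without any LSK or BL/6 library) to 4 (without pMT-10 CMP 2) rose. Bid, a death agonist of the BCL-2 family, was at 18.5 CPM in HSC against 56.9 and 50.8 CPM in pMT-10 CMPs (log2 fold change -1.54, SE 0.33, adjusted p = 0.0106 by edgeR). Bcl2l1, the survival factor BCL-XL, went the other way at 106 against 32.3 and 39.3 CPM (1.57, SE 0.27, adjusted p = 0.00453), and HSC was the highest of the 7 libraries. Bak1, a pore-forming death gene, was at 86.3 against 214 and 368 CPM (-1.75, SE 0.37, adjusted p = 0.0108), but level with the 80.5 and 93.2 CPM of BL/6 CMPs (log2 fold change -0.01, adjusted p = 0.99).

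Among zinc and metal handling genes 3 of 23 tested members rose and 4 fell, Mt1 among the latter, shares near those over all tested genes. With 1 library left out 1 (without any LSK or BL/6 library) to 4 (without either pMT-10 CMP library) rose and 3 (without any LSK or BL/6 library) to 7 (without pMT-10 CMP 1) fell. Slc39a8, a zinc importer gene, was at 3.18 against 20.5 and 11.2 CPM (-2.32, SE 0.51, adjusted p = 0.0119), and Gclm, which serves glutathione synthesis, at 105 against 209 and 203 CPM (-0.97, SE 0.22, adjusted p = 0.015). DNA methylation and Polycomb genes held 2 calls higher of 27 tested and none lower. Of 14 tested genes of cytosolic ribosomal proteins 2 fell and none rose. In the DNA methylation and ribosomal protein lists 7.41% and 14.3% of tested genes were called, beside 25.5% over all tested genes. In the small marker lists 2 of 3 tested B and plasma cell genes rose, 1 of 5 T and NK cell genes rose, and 2 of 5 macrophage genes fell. Over all tested genes 13.8% rose and 11.7% fell. The T and NK cell gene that rose was Klrb1c, named after its values were seen. It had 37 counts in HSC against 0 and 3 in pMT-10 CMPs, and passed the filter on low counts only through HSC.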
